A study of Homo sapiens with 24 samples.

Results

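Very short introns, here those spanning 60 to 110 bases, were followed in HCT-116 cells, a human colorectal carcinoma cell line, with and without the splicing modulator E7107. Members were selected on their percentages in DMSO and on their length. They were introns on chromosomes 1 to 22 and X that held at least 50% of the reads at both of their splice sites, averaged over the 12 DMSO samples, and whose splice sites both had reads in all 24 samples. Of 576243 junctions listed at both ends, 24733 spanned 60 to 110 bases and 6908 were members, in 3062 genes. The same criteria gave 95521 introns of any length, of which 88613 lay outside these limits.

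The cells carried an introduced copy of PHF5A, a subunit of the SF3b complex, either wild type (WT) or with the Y36C substitution, and were treated with DMSO or E7107 for 6 h. Each genotype with each treatment made a group of 6 samples (4 groups). They share the parental line and, per the study's methods, its own PHF5A gene beside the introduced copy. Polyadenylated RNA was sequenced. The labels give no dose of E7107 and do not say whether the 6 samples of a group were separate cultures, so p-values measure only the spread between these samples.

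Introns are removed after U1 pairs with the 5′ splice site and U2, held by SF3a and SF3b, settles on the branch point upstream of the 3′ splice site. E7107 binds SF3b at the pocket that takes the branch point adenosine. Very short introns lie close to the minimum span that the spliceosome can accommodate, so both splice sites and the branch point crowd into little sequence, and they are commonly recognised as a unit across the intron rather than across the neighbouring exons. In human genes they fall into a GC-rich type, flanked by GC-rich exons, and an AT-rich type.

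Retention was read at the 2 exon-intron boundaries of each intron. The value is the percentage of all reads at that splice site that cross unspliced into the intron, and the retention of an intron is the mean of its 5′ and 3′ boundary. Both boundary rows were listed for 6813 members, and 95 lacked one. In these bulk libraries a given retention may come from all cells alike or from a share of the cells, which cannot be told apart.

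The members were 62 to 110 bases long with a median of 90. They were GC-rich as a class, with a mean GC content of 56.3% and a median of 61.4%, but ranged from 13.6 to 89.9%. Of the members, 4513 (65.3%) had over 55% GC and 1168 (16.9%) had 35% or less. By comparison, the mean GC content was 54.1% for introns of over 110 to 200 bases and 44.6% for those of over 500 to 2000 bases. In the members the intron was on average richer in GC than the first 50 bases of the exon that follows (exon minus intron, -0.88 percentage points), whereas in introns of over 500 to 2000 bases the exon was the richer by 4.00 points. Nearly all members, 6851, began with GT and ended with AG, 55 were GC-AG and 2 were AT-AC, the form spliced by the minor spliceosome. Coding sequence flanked 6779 of them, and 4354 of these (64.2%) held a stop codon in the frame of the upstream exon, while only 660 (9.74%) kept the frame with no stop when read through.

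Sequences of members from each pattern described below are given first, since their base composition is among the features compared. They were read from GRCh37, the build of the files, 5′ to 3′ on the transcribed strand. Capitals mark the first 6 bases, the last 3 bases, and any match to CTNAC, a loose branch point motif searched on the transcribed strand only, within the last 60 bases. CTNAC was found there in 38.8% of the members. A match marks letters and not a branch point that was measured. The first 4 introns were retained strongly in WT cells under E7107 and little in Y36C cells. They include the GC-rich intron 3 of NR1D1 (chr17:38252841-38252943, minus strand), intron 10 of PPAN (chr19:10221291-10221372, plus strand) and intron 6 of SF3A2 (chr19:2246802-2246880, plus strand), and the AT-richer intron 17 of WDR43 (chr2:29169366-29169465, plus strand).
NR1D1 intron 3: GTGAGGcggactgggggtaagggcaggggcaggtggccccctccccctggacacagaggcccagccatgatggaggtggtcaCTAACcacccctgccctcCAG
PPAN intron 10: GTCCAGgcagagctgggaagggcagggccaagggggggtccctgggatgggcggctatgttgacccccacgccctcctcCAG
SF3A2 intron 6: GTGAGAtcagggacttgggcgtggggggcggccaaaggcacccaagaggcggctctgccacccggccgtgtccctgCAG
WDR43 intron 17: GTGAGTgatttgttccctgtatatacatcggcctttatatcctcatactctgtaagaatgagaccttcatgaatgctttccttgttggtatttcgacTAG

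The next 3 introns were retained in both genotypes under E7107. They are intron 1 of YDJC (chr22:21984051-21984139, minus strand), intron 11 of AMPD2 (chr1:110170900-110170985, plus strand) and intron 6 of CDC25B (chr20:3781513-3781617, plus strand), with GC contents of 76.4, 65.1 and 66.7%. None of them holds CTNAC in its last 60 bases.
YDJC intron 1: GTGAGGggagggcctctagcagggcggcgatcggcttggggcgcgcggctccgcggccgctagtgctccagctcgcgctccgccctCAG
AMPD2 intron 11: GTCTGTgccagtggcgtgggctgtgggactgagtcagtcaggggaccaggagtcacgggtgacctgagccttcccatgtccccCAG
CDC25B intron 6: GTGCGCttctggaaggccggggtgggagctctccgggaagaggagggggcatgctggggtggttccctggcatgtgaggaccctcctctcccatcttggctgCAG

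Retention went in opposite directions in the 2 genotypes for intron 14 of ASPSCR1 (chr17:79974746-79974816, plus strand) and intron 1 of HES4 (chr1:935168-935245, minus strand), both shorter than 80 bases, with GC contents of 67.6 and 83.3%. Retention dropped in WT cells alone for the AT-rich intron 7 of KLHDC2 (chr14:50246394-50246465, plus strand), with a GC content of 26.4%. Intron 7 of NOP2 (chr12:6672681-6672779, minus strand) is an AT-AC intron and opens with the conserved start of the minor class.
ASPSCR1 intron 14: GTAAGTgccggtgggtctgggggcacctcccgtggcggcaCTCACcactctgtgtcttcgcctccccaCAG
HES4 intron 1: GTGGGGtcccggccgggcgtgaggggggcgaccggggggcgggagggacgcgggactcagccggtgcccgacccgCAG
KLHDC2 intron 7: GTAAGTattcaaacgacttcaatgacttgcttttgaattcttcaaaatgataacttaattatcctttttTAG
NOP2 intron 7: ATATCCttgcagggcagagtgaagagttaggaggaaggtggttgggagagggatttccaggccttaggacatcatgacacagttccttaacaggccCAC

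The files give no read counts, so the depth behind a single percentage is unknown and no counting interval could be given. The number of splice sites with reads stood in for depth. Of 638460 sites, the median per sample was 338531.5 with DMSO and 283313.5 with E7107 in WT cells, and 337384 and 331094 in Y36C cells, so the WT E7107 libraries covered fewer sites than the others, and the part of this in the results was not tested. All annotated sites of the epithelial genes EPCAM, KRT8, KRT18 and CDH1 had reads in every sample, as did 2 of 4 sites of CDX2 and none of 38 of VIL1. No site of PTPRC, CD3E or COL1A2, genes of blood cells and fibroblasts, had reads throughout, although 85 of 100 sites of COL1A1 did.

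Over the members, mean retention was 4.96% ± 0.19 (SD, n = 6) in WT DMSO and 19.6% ± 0.76 in WT E7107. In Y36C cells it was 4.95% ± 0.13 with DMSO and 9.27% ± 0.18 with E7107. The single WT samples ran from 4.73 to 5.31% with DMSO (median 4.92%) and from 18.6 to 20.7% with E7107 (median 19.8%). The Y36C samples ran from 4.75 to 5.08% with DMSO (median 4.98%) and from 9.05 to 9.52% with E7107 (median 9.26%). The 2 DMSO groups overlapped, and both E7107 groups stood clear of them and of each other. No test was made on these means, since DMSO values chose the members. The average was carried by some introns more than others. The median over introns of the group means was 2.04% with DMSO and 11.1% with E7107 in WT cells, and 1.83 and 3.78% in Y36C cells.

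**Figure D1:**
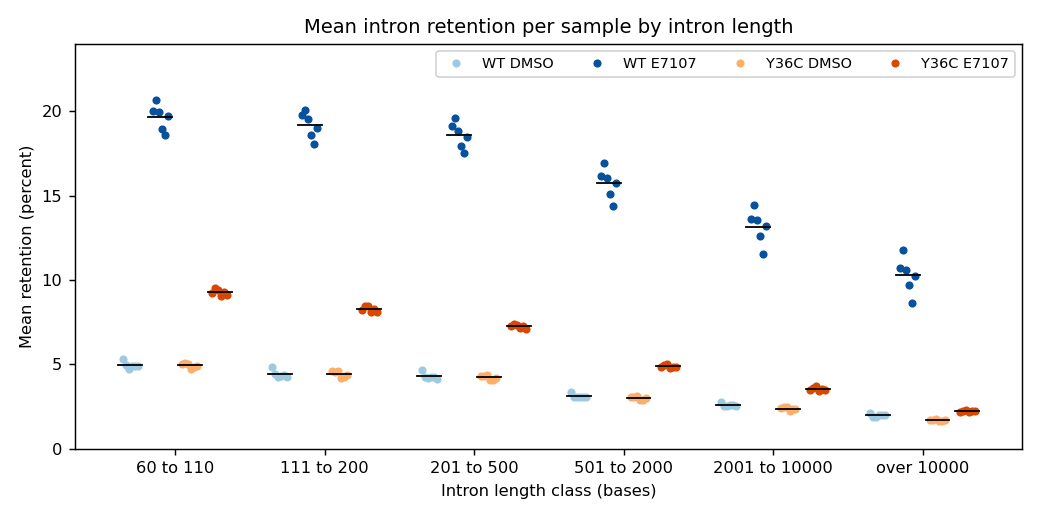
Mean retention in percent (vertical axis) of introns in 6 length classes (horizontal axis), with 1 point per sample, 6 samples per group and a bar at the group mean. In the shortest class the WT E7107 samples lie between 18.6 and 20.7% and the Y36C E7107 samples between 9.05 and 9.52%, and the Y36C E7107 level is lower in each longer class.

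Mean levels were highest in the short introns in all 4 groups, although in WT E7107 the next class, at 19.2% ± 0.77, lay within the SD. The difference of E7107 and DMSO averaged 14.7 percentage points in WT cells for the members, 14.8 for introns of over 110 to 200 bases, 12.6 for those of over 500 to 2000 bases and 8.30 for those over 10000 bases. In Y36C cells the corresponding values were 4.32, 3.83, 1.88 and 0.54 points. The step at the upper limit of 110 bases was small. The 781 members of the 6 greatest lengths averaged 19.7% in WT E7107 and 8.83% in Y36C E7107, and the 683 introns of the next 6 lengths 18.5 and 8.23%. At the limit of 50% in DMSO, the 66 members under 55% had 42.0 and 44.2% retention in these groups, and the 46 introns just outside, at 45 to under 50%, had 39.8 and 46.2%.

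An intron was called when both of its boundaries passed an adjusted p of 0.05 in the same direction in a limma fit on the log odds of the percentages over the whole table. In WT cells, 3198 of the 6908 members (46.3%) were higher with E7107 than with DMSO. Among introns of other lengths under the same criteria 32.7% were called, while 50.8% of the 163979 single boundary rows that were tested were. Lower retention was called for 161 members (2.33%), against 1.36% of the other introns and 4.48% of single boundary rows. In Y36C cells, 1219 members (17.6%) were called higher, where 4.63% of the other introns and 12.9% of single rows were. Only 4 members were called lower, against 0.0395% of the other introns and 0.514% of single rows. DMSO values enter both contrasts and also chose the members, so these counts are descriptions. Members and introns of other lengths that could not be tested, because a boundary was listed too low throughout or lacked a row, are counted as not called. The shares of single boundary rows, here and below, count tested rows only and need 1 boundary. They are therefore not on the same footing as the shares of introns. Reads that cross both boundaries may make the rule easier to meet in members than in longer introns, which was not tested.

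The contrast between genotypes under E7107 uses no percentage that chose the members. Its samples entered the selection only through the need for reads at both splice sites in all 24 samples. The contrast in DMSO and the interaction use the DMSO samples, whose mean over both genotypes chose the members. Without drug, no member was called at both boundaries between Y36C and WT cells, in either direction, by limma. At an unadjusted p under 0.05, 121 members (1.75%) differed at both boundaries in the same direction. The share of other introns at this unadjusted threshold was not worked out, so the 1.75% has no value to stand beside. At the adjusted threshold, 0.0159% of tested single boundary rows were higher and 0.0134% lower in this contrast. Of the other introns 0.00113% were higher and 0 lower. Under E7107, retention was lower in Y36C than in WT cells for 2590 members (37.5%), against 30% of the other introns and 46.3% of single rows. It was higher in Y36C cells for 591 members (8.56%), against 3.52% of the other introns and 8.76% of single rows. By the interaction of genotype and drug, the E7107 effect was smaller in Y36C cells for 2308 members (33.4%, with 26.3% of the other introns and 41.3% of single rows) and larger for 392 (5.67%, with 2.23 and 6.48%).

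The nearest length class was close to the members in most of these shares. Of the introns of over 110 to 200 bases, 45.2% were called higher in WT cells and 13.6% in Y36C cells, and under E7107 37.7% were lower and 6.97% higher in Y36C than in WT cells.

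The patterns overlapped in part. Of the members, 2301 (33.3%) were called higher in WT cells with a smaller effect in Y36C cells, against 26.1% of introns of other lengths. Higher retention in both genotypes was called for 727 (10.5%, against 2.49%). A further 492 (7.12%, against 2.14%) were called higher in Y36C cells and not in WT cells. Of the members called higher in Y36C cells, 222 (3.21% of all members, against 0.83%) had a larger effect there by the interaction. The 591 members with more retention in Y36C cells under E7107 were made up in several ways. Of them, 305 were called higher in Y36C cells (4.42% of all members, against 1.17% of introns of other lengths). Lower retention in WT cells was called for 128 (1.85%, against 1.06%), of which 24 were in both sets. Another 182 were called in neither drug contrast (2.63%, against 1.44%).

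**Figure D2:**
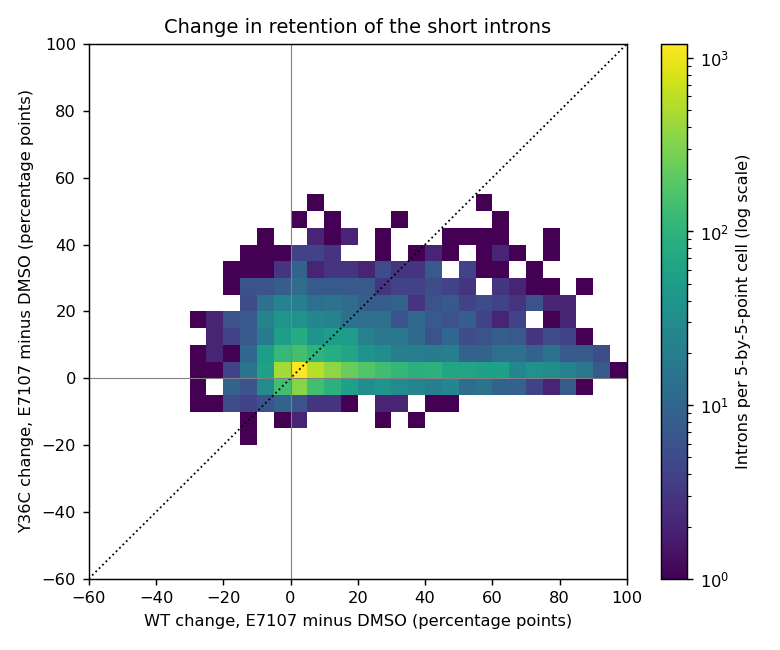
Change in retention between E7107 and DMSO, in percentage points, in WT cells (horizontal axis) and Y36C cells (vertical axis) for 6813 short introns, with colour giving the number of introns per cell of 5 by 5 points on a log scale and the dotted line marking equal change. Most introns lie under the line and spread far to the right, while a band near a WT change of 0 reaches up to 53.2 points in Y36C cells.

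The size of the changes differed as well as their number. In WT cells 2902 of the 6813 members with both boundaries were on average at least 10 points higher with E7107, and 576 at least 50 points. In Y36C cells 1028 were at least 10 points higher, 92 at least 30 points and 2 at least 50 points. The changes in the 2 genotypes were weakly related across introns (Pearson's r = 0.0955, n = 6813 introns, which share their libraries and in part their genes).

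The 2 boundaries of a short intron gave nearly the same values. In introns this short an unspliced read may cross both boundaries, so the 2 values are not independent readings. The correlation of 5′ with 3′ retention across introns was 0.963 in WT E7107 and 0.942 in Y36C E7107. The 3′ boundary was the higher one for 63.7 and 63.3% of the introns, with a median difference of 0.85 and 0.41 percentage points. In DMSO the 3′ boundary was the higher one for 63.1% in WT and 62.2% in Y36C cells.

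At the splice sites of the members, reads went either to the intron's own junction, to the boundary or to another junction. Other junctions took 1.06% ± 0.025 (SD, n = 6) of the reads at the 5′ sites in WT DMSO and 1.26% ± 0.017 in WT E7107. In Y36C cells they took 1.12% ± 0.029 with DMSO and 2.12% ± 0.023 with E7107. At 3′ sites the share went from 0.948 to 1.16% in WT cells and from 0.906 to 1.70% in Y36C cells. At the 5′ sites retention went from 4.54 to 18.8% in WT cells and from 4.53 to 8.67% in Y36C cells, so it took more of the reads lost from the intron's own junction than other junctions did in both genotypes.

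The change was graded by base composition in Y36C cells and little in WT cells. In WT cells the mean change with E7107 was 12.9 points for members of 35% GC or less and between 14.5 and 16.9 points in every higher band. In Y36C cells it went from 1.06 points at 35% GC or less through 1.70, 3.31, 4.52 and 5.98 to 8.76 points above 75% GC. The share of members called higher in Y36C cells went from 3.60% in the lowest band to 34.7% in the highest. In WT cells the same share was 42.6 and 45.8%. The share with more retention in Y36C than in WT cells under E7107 went from 2.48% at 35% GC or less to 13.1% above 75%. The selection entered this contrast only through the presence of reads. Across introns, GC content had an r of 0.287 with the Y36C change and of 0.0169 with the WT change (n = 6813 introns in shared libraries).

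GC content moved with other features. Retention in DMSO was 2.41% in WT cells at 35% GC or less and 8.13% above 75%, and the Y36C change was also graded by DMSO retention, from 0.71 points for introns retained under 1% in DMSO to 14.3 points for those at 20% or more. Within 1 band of DMSO retention the gradation by GC content was still present. For members retained at 5 to 10% in DMSO, the Y36C change was 3.45 points at 45% GC or less (118 introns), 7.42 points above 45 to 65% (401 introns) and 9.09 points above 65% (401 introns), while the WT change was 17.4, 16.9 and 16.3 points. For members at 1 to 5% in DMSO the Y36C change was 1.58, 3.10 and 4.17 points.

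Longer introns were graded by GC content as well, except that introns over 500 bases with over 75% GC (33 introns) had 3.38 points. Above 65 to 75% GC the Y36C change was 5.98 points for the members, 5.60 for introns of over 110 to 500 bases and 4.41 for those over 500 bases. At 35% GC or less it was 1.06, 1.15 and 0.90 points. Length and composition moved together, as 36.9% of the members and 2.43% of the introns of over 500 to 2000 bases had over 65% GC.

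**Figure D3:**
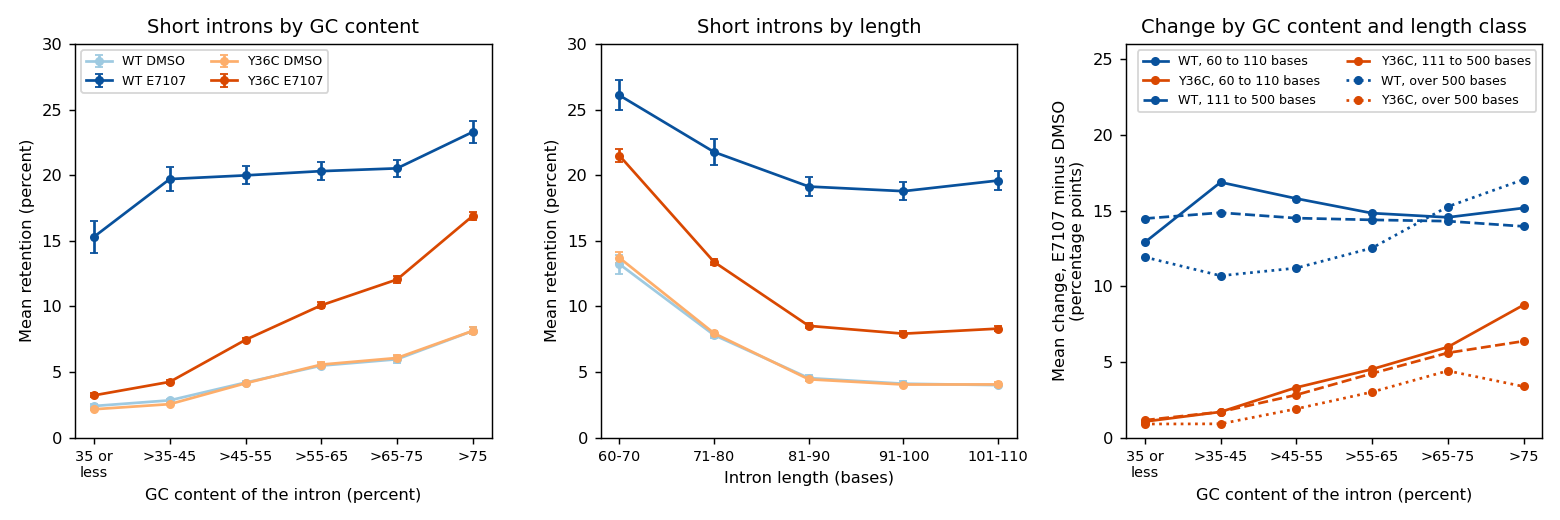
Left and middle, mean retention in percent of the short introns by GC content and by length in the 4 groups, with error bars of 1 SD over 6 samples. Right, mean change between E7107 and DMSO in percentage points by GC content for 3 length classes. The Y36C line rises from 1.06 to 8.76 points with GC content, while the WT line stays between 12.9 and 16.9 points.

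Within the class, the shortest introns were the most retained at the start. Members of 60 to 70 bases (72 introns) had 13.2% ± 0.72 retention in WT DMSO, those of 71 to 80 bases 7.82% ± 0.23 and those of over 100 bases 4.00% ± 0.17. The WT change was lowest in the shortest band (12.9 points) and highest in the longest (15.6 points). The Y36C change was highest in the shortest band, at 7.79 points for 60 to 70 bases, 5.43 for 71 to 80 bases and 3.88 to 4.25 in the 3 longer bands. GC content moved with length, with a mean of 68.4% in the shortest band, 60.6% at 71 to 80 bases and 55.2% over 100 bases. Among members with 55% GC or less the Y36C change was 2.14 points at 71 to 80 bases and 1.66, 1.95 and 2.15 points in the 3 longer bands, and with over 55% GC it was 8.19 points at 60 to 70 bases (67 introns), 6.50 at 71 to 80 bases and 5.37, 5.07 and 5.54 points in the longer bands. More retention in Y36C than in WT cells under E7107 was called for 16.7, 14.4 and 7.11% of the members of 60 to 70, 71 to 80 and over 100 bases. Lower retention in WT cells was called for 2.78% of the members of 60 to 70 bases, 5.56% of those of 71 to 80 bases and 1.69% of those of over 100 bases. Of the 161 members called lower in WT cells, 66 (40.99%) were 80 bases or shorter, against 17.7% of all members. Those 161 had a median retention of 11.1% in WT DMSO, against 2.04% over all members. Members under 1% in DMSO have almost no room to fall, so the fact that 0 of them were called lower carries no information. The part of DMSO retention in the share of short introns was not tested.

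Other features of the sequence moved less. Among members with over 55% GC, the Y36C change was 4.89 points with CTNAC in the last 60 bases and 6.17 points without it. It was 6.95 points where at most 65% of the 20 bases before the last 3 were pyrimidines and 4.17 points where over 80% were. Among members with 55% GC or less the values were 1.83 and 1.94 points for CTNAC, and 2.18 and 1.60 points for pyrimidines. In WT cells all 8 of these bands lay between 14.3 and 14.9 points. First introns were few (194) and had the larger changes, 21.8 points in WT and 7.24 in Y36C cells, against 14.2 and 4.27 points for internal introns. Their mean GC content was 67.4%, against 55.8% for internal introns. Introns that keep the reading frame without a stop changed by 14.1 and 4.78 points on average, and those with an in-frame stop by 14.7 and 3.83 points. Those that shift the frame without a stop changed by 14.5 and 5.14 points. Mean GC content was 63.5, 52.6 and 63.6% in this order, and its part in these values was not tested.

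An exon of another gene overlapped 295 members (4.27%) in the GENCODE annotation, and the sources used here do not say that the libraries kept strand, so their boundary reads may belong to that gene. Their retention in WT DMSO was 10.04%, against 4.73% for the rest. An exon of the same gene, as in an annotated transcript that keeps the intron, lay over 2147 members (31.1%). These had 8.10% retention in WT DMSO and a Y36C change of 6.44 points, and the remaining 4761 had 3.52% and 3.35 points. The WT change was 14.5 and 14.8 points.

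Among single introns, those with the largest rise in WT cells and a smaller one in Y36C cells were taken by rule, and 5 are described. They lay in NR1D1 and PER1, 2 repressors of the circadian clock, PPAN and WDR43, which act in ribosome biogenesis, and UBE2O, a ubiquitin-conjugating enzyme. Intron 3 of 7 in NR1D1 had 0 to 8.04% retention in the WT DMSO samples (median 1.47%) and 96.7 to 99.1% in the WT E7107 samples (median 98.4%). The Y36C samples held 0 to 7.69% with DMSO (median 4.95%) and 2.39 to 10.5% with E7107 (median 6.17%). The WT groups were far apart and the Y36C groups overlapped. On the log-odds scale the WT rise was 7.23 ± 0.43 (SE) at the 5′ and 7.40 ± 0.49 at the 3′ boundary (larger adjusted p = 6.3e-08, limma), and the interaction was -6.35 ± 0.60 and -7.02 ± 0.68 (larger adjusted p = 1.2e-08, limma).

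Intron 10 of 11 in PPAN went from 1.07 to 3.27% (median 2.91%) with DMSO to 95.2 to 96.6% (median 96.2%) with E7107 in WT cells. The Y36C samples held 1.81 to 3.43% (median 2.37%) with DMSO and 3.66 to 5.45% (median 4.35%) with E7107, which did not pass the test (larger adjusted p = 0.097, limma). Its interaction was -5.94 ± 0.23 and -5.72 ± 0.24 in log odds (larger adjusted p = 3.9e-14, limma). The AT-richer intron 17 of 17 in WDR43 behaved much as these GC-rich introns did in WT cells, with 0.67 to 2.71% (median 2.00%) in DMSO and 93.6 to 94.8% (median 94.1%) in E7107. Its Y36C rise was small but passed the test, from a mean of 1.61% ± 0.57 to 5.56% ± 1.1 (larger adjusted p = 0.0025, limma).

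Intron 11 of 17 in UBE2O rose by 91.7 points in WT cells, to 92.9% ± 4.8, and had 2.13% ± 0.74 in Y36C cells under E7107. Intron 11 of 22 in PER1 rose by 91.5 points in WT cells, to 95.6% ± 2.2, and had 14.5% ± 3.5 in Y36C cells under E7107. Of the 5 introns, those of WDR43 and PER1 hold a stop codon in frame, and those of NR1D1, PPAN and UBE2O shift the frame.

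**Figure D4:**
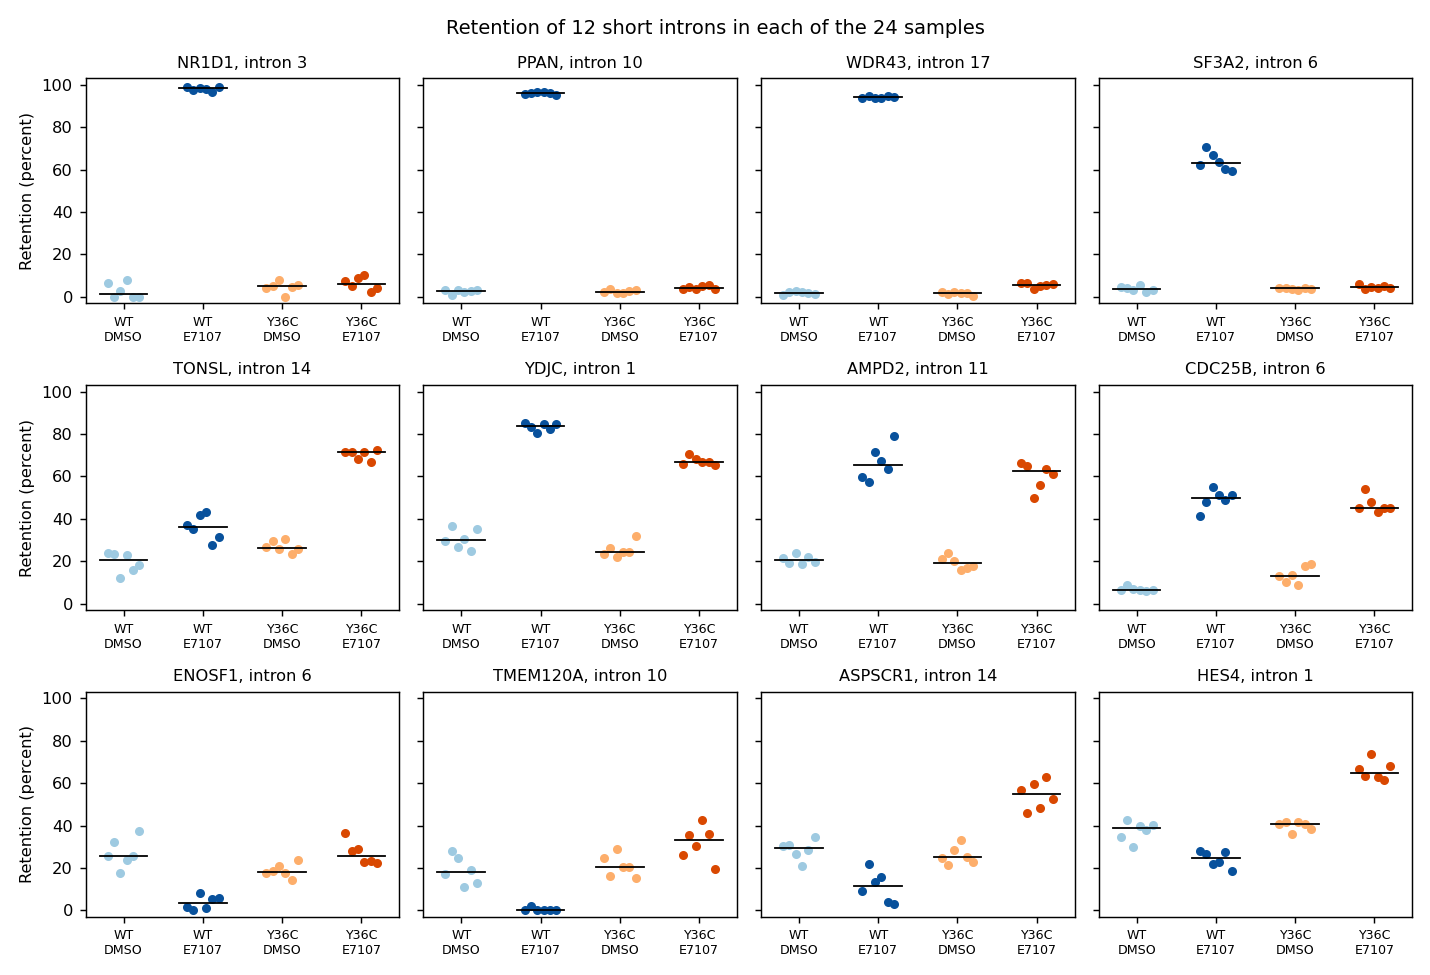
Retention in percent (vertical axis) of 12 short introns, as the mean of both boundaries, with 1 point per sample, 6 samples per group and a bar at the group median. The top row is high with E7107 in WT cells alone, the middle row with E7107 in both genotypes, and the bottom row is low with E7107 in WT cells and at or above the DMSO level in Y36C cells.

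The 6 introns with the largest rise in Y36C cells among those called in both genotypes lay in TONSL, which acts in the repair of replication forks, YDJC, PCNX3, MED15, a subunit of the Mediator complex, AMPD2, an AMP deaminase, and RFNG, a glycosyltransferase that modifies Notch. All 6 had 63.4 to 76.4% GC, and all but MED15 and PCNX3 had over 19% retention in WT DMSO. Intron 1 of 4 in YDJC held 24.8 to 36.5% (median 29.97%) in WT DMSO and 80.6 to 85.2% (median 84.0%) in WT E7107. Y36C cells had 21.8 to 31.9% (median 24.5%) with DMSO and 65.3 to 70.6% (median 66.8%) with E7107. The E7107 groups of both genotypes cleared their DMSO groups, and the interaction did not pass the test (larger adjusted p = 0.071, limma).

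Intron 11 of 18 in AMPD2 was the case in which the genotypes came closest. Retention went from 18.6 to 23.8% (median 20.5%) to 57.3 to 78.8% (median 65.5%) in WT cells. The Y36C samples went from 15.9 to 23.7% (median 18.9%) to 49.6 to 66.1% (median 62.5%). The E7107 groups overlapped, and the interaction was -0.27 ± 0.27 in log odds at the 3′ boundary (larger adjusted p of both boundaries = 0.99, limma). Intron 14 of 25 in TONSL was more retained in Y36C cells, with 27.6 to 43.1% (median 36.03%) in WT E7107 and 66.6 to 72.5% (median 71.3%) in Y36C E7107. This difference was 1.38 ± 0.17 and 1.49 ± 0.22 in log odds (larger adjusted p = 8.3e-05, limma). The WT rise of TONSL (larger adjusted p = 0.032, limma) was lost with an offset of 0.1 points and without replicate 1, 2, 3, 4 or 6, with an estimate of 0.68 to 0.88 in log odds.

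In PCNX3, intron 4 of 34 reached 87.7% ± 1.5 in WT and 49.8% ± 3.3 in Y36C cells with E7107. Intron 15 of 17 in MED15 reached 63.9% ± 7.1 and 55.2% ± 3.6, and intron 3 of 7 in RFNG 88.9% ± 2.9 and 72.0% ± 4.3. The interaction passed the test for these 3 introns, with larger adjusted p-values of 0.00012, 0.011 and 0.0014 (limma), the effect being smaller in Y36C cells.

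Retention in WT cells was lowered by E7107 in a small set. The 4 largest falls lay in ENOSF1, MAN2C1, a cytosolic mannosidase, KLHDC2, a substrate receptor of a cullin ubiquitin ligase, and TMEM120A. Intron 10 of 11 in TMEM120A held 10.8 to 28.1% (median 18.2%) in WT DMSO and 0 to 2.00% (median 0%) in WT E7107, where 5 of the 6 samples were at 0. Y36C cells had 15.1 to 28.8% (median 20.3%) with DMSO and 19.3 to 42.5% (median 33.0%) with E7107. The WT fall was -3.47 ± 0.18 and -2.37 ± 0.41 in log odds (larger adjusted p = 0.00032, limma), and the groups of Y36C cells overlapped.

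Intron 7 of 12 in KLHDC2 went from 13.1 to 28.8% (median 22.5%) to 0 to 9.58% (median 0%) in WT cells (larger adjusted p = 0.0005, limma). In Y36C cells it had 18.0% ± 7.8 with DMSO and 14.8% ± 8.1 with E7107, and the contrast did not pass (larger adjusted p = 0.81, limma). Intron 6 of 15 in ENOSF1 fell by 23.3 points in WT cells, from 27.0% ± 6.9 to 3.75% ± 3.2 (larger adjusted p = 0.00047, limma). Intron 22 of 25 in MAN2C1, which lies under an exon of another gene, fell by 23.1 points in WT cells and rose by 16.9 points in Y36C cells, from 39.4% ± 2.9 to 56.3% ± 6.0.

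The introns in which the Y36C change most exceeded the WT change, besides that of MAN2C1, lay in ASPSCR1, a regulator of glucose transporter traffic, TCIRG1, a subunit of the proton-pumping V-ATPase, and HES4, a transcriptional repressor of the Notch pathway. Intron 14 of 15 in ASPSCR1 held 20.8 to 34.5% (median 29.4%) in WT DMSO and 2.78 to 21.9% (median 11.4%) in WT E7107. Y36C samples held 21.2 to 33.0% (median 25.0%) with DMSO and 45.9 to 62.7% (median 54.7%) with E7107. The Y36C E7107 samples were above all others, and the interaction was 2.27 ± 0.29 and 3.05 ± 0.63 (larger adjusted p = 0.00037, limma).

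Intron 1 of 3 in HES4, which would keep the reading frame if retained, held 29.7 to 42.8% (median 39.03%) in WT DMSO and 18.7 to 28.0% (median 24.8%) in WT E7107. Y36C cells had 36.3 to 41.9% (median 40.6%) with DMSO and 61.7 to 73.6% (median 64.9%) with E7107. Neither pair of groups overlapped, and the interaction was 1.70 ± 0.21 and 1.92 ± 0.22 (larger adjusted p = 4.9e-07, limma). Intron 12 of 19 in TCIRG1, at 77 bases and 81.8% GC, went from 35.03% ± 5.6 to 63.6% ± 3.0 in Y36C cells. In WT cells it had 32.2% ± 8.1 with DMSO and 17.8% ± 6.0 with E7107, which did not pass the test (larger adjusted p = 0.096, limma). The 3 introns were 71 to 78 bases long.

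At the other end, 141 members were at 0 at both boundaries in all 6 WT E7107 samples. Of those that the rule named, first by position among ties at 0, 4 are described. They lay in CHD5, a chromatin remodeller, HSPG2, the basement membrane protein perlecan, CRYBG2, and OMA1, a mitochondrial protease. Their highest group mean was 3.82% ± 4.7, for CHD5 in Y36C E7107, and none was called, although those of CHD5, HSPG2 and CRYBG2 could not be tested at both boundaries. Of these, OMA1 intron 4 of 8 had 0% in WT E7107 and 0 to 8.11% (median 3.30%) in Y36C E7107 (larger adjusted p = 0.091, limma).

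The 3 shortest introns with an SD of at most 10 points were those of ALDH3A2 (62 bases), TNFRSF18 (65 bases) and UCKL1 (66 bases). None was called in either drug contrast. Retention under E7107 was higher in Y36C than in WT cells for TNFRSF18, with 36.7 to 54.5% (median 42.6%) against 21.2 to 39.05% (median 27.7%), groups that overlapped slightly (larger adjusted p = 0.027, limma). It was also higher for UCKL1, with 20.6% ± 6.4 against 8.05% ± 3.1 (larger adjusted p = 0.015, limma). Intron 3 of ALDH3A2, in the 3′ untranslated region, stayed under 10% in all 24 samples. The 3 longest, at 110 bases each, differed widely, as intron 2 of 3 in ERRFI1, an inhibitor of the EGF receptor, reached 91.6% ± 1.9 in WT E7107, and intron 82 of UBR4 and intron 90 of HSPG2 had 3.11% ± 1.4 and 1.17% ± 1.9. That of HSPG2 had 9.99% ± 3.1 in Y36C E7107, above all WT E7107 samples (larger adjusted p = 0.0099, limma).

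Some genes held many such introns. Of the introns of the annotated main transcript, members were 30 of 79 in LAMA5, a laminin chain, 27 of 37 in CPSF1, a subunit of the pre-mRNA cleavage and polyadenylation factor, 25 of 47 in FLNA, an actin crosslinker, 24 of 48 in ABCA2, a lipid transporter, 22 of 96 in HSPG2 and 21 of 50 in PIEZO1, a mechanosensitive channel. Their counts stand beside 46.3% of all members called higher in WT cells, 17.6% in Y36C cells and 8.56% more retained in Y36C cells under E7107. In FLNA, 22 of the 25 were called higher in WT cells and 6 in Y36C cells, with a median WT change of 4.50 points and a highest of 10.5. In LAMA5, 8 of 30 were called higher in WT cells and 15 in Y36C cells, and the Y36C change reached 35.8 points. In ABCA2 none of 24 was called higher in WT cells, 5 were in Y36C cells, and 9 had more retention in Y36C than in WT cells under E7107. The counts for HSPG2 were 0, 3 and 3 of 22. CPSF1 had 18 called higher in WT and 10 in Y36C cells, and PIEZO1 14 and 6. The introns of 1 gene share its transcripts and are not independent of each other.

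By gene list, splicing factors had the largest shares called in WT cells. Of 21 short introns in SF3a, SF3b and other factors of the 3′ splice site, 17 were called higher in WT cells and 0 in Y36C cells, with a median change of 14.7 and 0.13 points, beside 6.86 and 1.42 points over all members. Over all members 46.3% were called higher in WT cells and 17.6% in Y36C cells. Of 142 in other spliceosome proteins and splicing regulators, 110 (77.5%) were called higher in WT and 33 (23.2%) in Y36C cells. Cell cycle and cell death genes had 42 and 8 of 56, cytoskeletal genes 47 and 10 of 67, and the transcription machinery 54 and 15 of 81.

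Several lists lay near the shares over all members, such as zinc finger genes with 51.6% in WT cells, DNA replication and repair genes with 41.2% in WT cells and the transcription machinery with 18.5% in Y36C cells. The size of the change ranked the lists otherwise. The median WT change was 26.1 points for zinc finger genes, the largest of the lists, and 19.4 for cell cycle and cell death genes. It was 15.6 points for other spliceosome proteins and splicing regulators and 3.81 for cytosolic ribosomal protein genes, beside 6.86 over all members. Cytosolic ribosomal protein genes had 21 and 4 of 31, mitochondrial ones 17 and 8 of 29, proteasome subunits 21 and 4 of 36, and zinc finger genes 16 and 3 of 31. Vesicle coats and the V-ATPase had the lowest share in WT cells, with 26 of 68, and 3 in Y36C cells. DNA replication and repair genes had 35 and 20 of 85, and 14 of their introns had more retention in Y36C than in WT cells under E7107 (8.56% over all members). Translation factors and tRNA synthetases had 58 and 20 of 104, with 18 more retained in Y36C cells under E7107. These lists hold genes that several features separate, among them GC content, which had a median of 51.7% in the list of SF3a, SF3b and 3′ splice site factors and 61.5% over the 6813 members with both boundaries. The part of it in the counts was not tested.

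**Figure D5:**
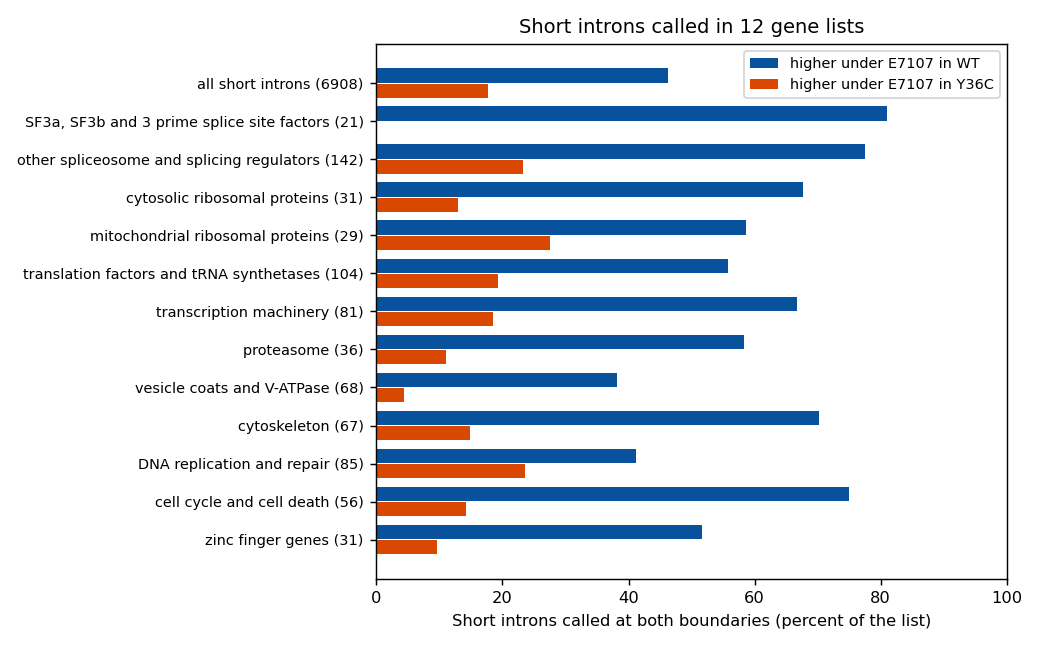
Share of short introns (horizontal axis, percent) called higher under E7107 at both boundaries in WT and in Y36C cells for all short introns and for 12 gene lists, with the number of introns in brackets. The list of SF3a, SF3b and 3′ splice site factors has 80.95% in WT and 0% in Y36C cells.

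The genes of SF3a and of SF3b, the complex that E7107 binds, were read singly. In the SF3a gene SF3A2, intron 6 of 8 held 2.34 to 5.77% (median 3.69%) in WT DMSO and 59.4 to 70.6% (median 62.9%) in WT E7107. Y36C cells had 3.27 to 4.14% (median 3.93%) with DMSO and 3.55 to 6.12% (median 4.44%) with E7107, groups that overlapped. Intron 8 of 8 in the same gene went from 0.24% ± 0.16 to 49.3% ± 5.6 in WT cells and had 1.20% ± 0.37 in Y36C E7107. Both interactions passed the test (larger adjusted p = 2.2e-11 and 1.4e-11, limma).

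Intron 10 of SF3A1 reached 31.7% ± 3.0 and intron 19 of SF3B3 24.0% ± 2.6 in WT E7107, and both had under 1% on average in the other 3 groups. Introns 18 and 20 of SF3B2 reached 6.89% ± 1.3 and 9.15% ± 0.59. In SF3B1, the subunit that clamps the branch point helix, 3 AT-rich introns of 21.9 to 24.7% GC reached only 1.96% ± 0.49 to 3.36% ± 0.59, of which intron 19 was called (larger adjusted p = 0.0011, limma) and the other two could not be tested at both boundaries. Introns 13 and 3 of SF3A3 reached 2.00% ± 0.71 and 3.67% ± 1.7. The first could not be tested and the second did not pass (larger adjusted p = 0.063, limma). PHF5A, MCL1 and CDK10 held no member.

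CDC25B, a phosphatase that activates cyclin-dependent kinases, was retained in both genotypes. Its intron 6 of 15 held 6.06 to 8.85% (median 6.45%) in WT DMSO and 41.2 to 55.2% (median 49.98%) in WT E7107. In Y36C cells it held 8.74 to 18.8% (median 13.2%) with DMSO and 43.2 to 54.2% (median 45.2%) with E7107. The E7107 groups overlapped (larger adjusted p = 0.44, limma), as did the DMSO groups (larger adjusted p = 0.41, limma), and the interaction was not called (larger adjusted p = 0.24, limma).

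RBM5, a splicing regulator of apoptosis genes, held 3 members, which reached 65.1% ± 6.1, 69.2% ± 7.6 and 86.6% ± 3.9 in WT E7107 for introns 13, 19 and 23 of 24. In Y36C E7107 they had 3.76% ± 4.2, 8.11% ± 2.9 and 38.4% ± 5.6. Intron 23, which lies under an exon of another gene, was the only one of them called in Y36C cells (larger adjusted p = 0.0013, limma), from 17.1% ± 3.8 with DMSO.

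Both AT-AC introns were read. Intron 7 of 15 in NOP2, an RNA methyltransferase of the ribosome assembly pathway, had 4.07% ± 1.1 in WT DMSO and 48.0 to 63.4% (median 53.6%) in WT E7107. In Y36C E7107 it had 2.88 to 5.55% (median 5.13%), and the interaction was -3.01 ± 0.25 at the 5′ boundary (larger adjusted p = 8.5e-10, limma). Intron 1 of ARL16, a small GTPase, lies under an exon of another gene. It had 7.48% ± 0.77 with DMSO and 10.5% ± 1.5 with E7107 in WT cells, which did not pass the test (larger adjusted p = 0.267, limma). These means join unequal boundaries, with 0.41% at the 5′ and 14.5% at the 3′ boundary in WT DMSO. In WT E7107 the values were 2.12 and 18.8%.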

How the data were processed

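RNA-seq of 24 samples, 6 in each of 4 groups taken from the sample titles, was used, and no sample was left out of a fit. The authors aligned reads to hg19 with STAR (also named in the submitters' processing notes), counted junction and boundary reads, and deposited the percent spliced in (PSI), the percent of reads at a splice site taken by each junction or boundary. Strandedness is not given in the sources used here. Percentages summed to 100 or 0 (within 0.05 points) at all sites, and sums of 0 were treated as missing. An intron runs from the base after the listed start to the listed end (99.16% of 95577 introns were GT-AG on GRCh37). Genes came from GENCODE lifted to GRCh37.

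The fit was limma 3.58.1 in R 4.3.3 on the natural log of the odds, ln((PSI + 1)/(100 - PSI + 1)), on rows at sites with reads in all 24 samples and a mean PSI of 1 to 99 over the 24 samples, with Benjamini-Hochberg adjustment over these rows and a threshold of 0.05. The fit was run on 438287 simulated rows built for the WT contrast. It called 25 of 100 rows shifted by 1 in log odds, 55 of 100 shifted by 2, and 7 of 438087 not shifted. An intron that was not called may therefore still differ. Tables were handled in Python 3.11.15. Alternatives were PSI itself, offsets of 0.1 and 5, other filters, a minimum change of 10 points, a replicate block and leaving out each replicate. Deviations of same-numbered samples had correlations from -0.0062 to 0.0075. In the members' mean retention, however, sample 2 was highest in WT E7107, Y36C DMSO and Y36C E7107 (20.7, 5.08 and 9.52%). In WT DMSO sample 1 was highest (5.31%). Sample 4 was lowest in both Y36C groups (4.75 and 9.05%), but not in the WT groups. The correlations therefore do not decide whether the numbers mark a shared batch, and the main fit used no pairing.

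Members, lists and rules were chosen with earlier results of these data known. Named introns had an SD of at most 10 points at each boundary in each group (4587 members), at most 1 per gene, and were the 6 largest WT rises that were smaller in Y36C by the interaction, the 6 largest Y36C rises called in both genotypes, the 5 not called in WT with the lowest WT E7107 retention but at least 1% in some group, the 4 largest WT falls, the 4 largest excesses of the Y36C over the WT change, the 3 shortest and 3 longest, and all members in SF3a, SF3b, PHF5A, MCL1, CDC25B, RBM5 and CDK10. Of these, 2 introns are not reported here, nor is 1 marker gene, and their places were not refilled. The AT-AC introns and the genes with the most members were added after values were seen.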

Additional observations from a re-analysis of the deposited data

Results flagged for a closer look

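Of 184 sets of 6 samples looked at (the members' means and 43 named introns in each group), 15 held 1 sample far from the other 5 by Dixon's test. Chance flags about 1 in 20. No mean over the members was among them. Among sets with a median above 1%, MED15 intron 15 had a sample at 12.8% in WT DMSO (median 6.12%) and TCIRG1 intron 12 one at 45.7% in Y36C DMSO (median 33.5%). ALDH3A2 intron 3 had one at 2.93% in Y36C E7107 (median 7.94%). CDC25B intron 6 had one at 8.85% in WT DMSO (median 6.45%) and SF3B1 intron 19 one at 2.23% in WT E7107 (median 3.497%). The others were single values in sets with a median under 1%. They were 1.32% for HSPG2 intron 92, 4.55% for CRYBG2 intron 19, 0.562% for UBR4 intron 82, 0.452% for SF3A3 intron 13 and 1.05% for SF3B1 intron 19 in Y36C DMSO, 0.184% for SF3A3 intron 13 and 0.238% for SF3B1 intron 15 in Y36C E7107, 9.58% for KLHDC2 intron 7 and 2.00% for TMEM120A intron 10 in WT E7107 (medians 0%), and 0.817% for SF3B1 intron 10 in WT DMSO.

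The effect of E7107 differed between genotypes, by the interaction in limma, for 2308 members with a smaller and 392 with a larger effect in Y36C cells, and for 30 of the 43 named introns. Given as the Y36C change minus the WT change in percentage points, the difference was negative for NR1D1 (-93.4), PPAN (-91.5), UBE2O (-90.2), WDR43 (-88.4), PER1 (-83.7), ERRFI1 (-65.0), RBM5 introns 13, 19 and 23 (-60.5, -59.8 and -44.2), SF3A2 introns 6 and 8 (-59.1 and -48.0), PCNX3 (-34.8), SF3A1 (-31.5), SF3B3 (-22.96), RFNG (-20.9), MED15 (-15.2), SF3B2 introns 20 and 18 (-8.86 and -5.78) and SF3B1 intron 19 (-2.84). It was positive for ASPSCR1 (45.9), TCIRG1 (43.0), MAN2C1 (40.0), HES4 (39.4), ENOSF1 (31.4), TMEM120A (29.3), TONSL (26.8), KLHDC2 (16.3), UCKL1 (14.7), TNFRSF18 (13.4) and HSPG2 intron 90 (10.5).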

How the results depend on the processing

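Counts of members called higher in WT cells, and of all members differing between genotypes under E7107 or by the interaction, moved by less than 1.5 times under every alternative run. A minimum change of 10 points at each boundary left 606 members higher in Y36C cells, 45 lower in WT cells, 1 lower in Y36C cells, 378 higher in Y36C than in WT cells under E7107 and 254 with a larger effect in Y36C cells. The count lower in Y36C cells was 2 with an offset of 0.1 points and 7 with rows above 0 in all 6 samples of a group. In DMSO the count was 5 with PSI in percent as the response, 6 with an offset of 5 points, 4 with rows above 0 in all 6 samples of a group and 2 with no filter.

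Leaving out each replicate in turn gave 3001 to 3073 members higher and 114 to 133 lower in WT cells, 985 to 1025 higher and 2 to 4 lower in Y36C cells (2 without replicate 4), and 0 differing in DMSO. Under E7107 it gave 2939 to 2989 that differed, 502 to 524 higher and 2430 to 2484 lower in Y36C cells, and for the interaction 2468 to 2537, 312 to 335 and 2143 to 2202. Mean retention was 4.89 to 5.00% in WT DMSO, 19.4 to 19.9% in WT E7107, 4.92 to 4.99% in Y36C DMSO and 9.22 to 9.31% in Y36C E7107.

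As the median over the members of each sample, retention was 1.81 and 10.7% in WT cells (DMSO and E7107) and 1.62 and 3.52% in Y36C cells. The mean was 3.13, 18.1, 3.01 and 6.46% in this order for members with a DMSO PSI of 80 or more. With 1 intron per gene it was 4.72, 4.62 and 8.35% in WT DMSO, Y36C DMSO and Y36C E7107. Chosen after seeing the data, leaving out members under an exon of another gene gave 4.73, 4.72 and 8.99% in these 3 groups, and leaving out members under an exon of the same gene gave 3.52, 18.3, 3.41 and 6.76% in the 4 groups.

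With the replicate number as a block, 3059 members were higher in WT and 898 in Y36C cells, and 0 differed in DMSO. The labels give same-numbered samples only a number in common. The block changed the calls of 2 named introns in Y36C cells, ERRFI1 intron 2 (lost) and RBM5 intron 19 (gained, as without replicate 4). The WT call of TONSL intron 14 was lost without replicate 1, 2, 3, 4 or 6, and SF3A2 intron 8 was called in Y36C cells without replicate 2. No named intron changed direction. The depth behind each PSI is unknown, so low retention may be below what the reads can show.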
